A study of Homo sapiens with 24 samples.

Results

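Cytosolic DNA sensing was followed in HCT116 cells through 9 of the 58735 genes in the count tables. They were picked by symbol, with earlier results of these data known. They were the DNA sensors CGAS, IFI16, AIM2 and ZBP1, the nuclease TREX1, the adaptor STING1, the kinases TBK1 and IKBKE, and the transcription factor IRF3, and each symbol matched 1 gene. A further 81 genes of the pathway, listed by role, were examined beside them. HCT116 is a human colorectal carcinoma line, here carrying the plant F-box protein OsTIR1 under a doxycycline-inducible promoter, so that a protein fused to an auxin-inducible degron (AID) is degraded when auxin is added. Polyadenylated RNA was sequenced from the WT line, from lines with the degron on DNMT1 (DNMT1-AID) or on UHRF1 (UHRF1-AID), and from a line with both (UHRF1-AID/DNMT1-AID, here the compound line), at day 0, before auxin, and at day 4 of 500 µM auxin. Doxycycline at 2 µg/mL accompanied the auxin and followed 1 day of doxycycline with 20 µM auxinole, an OsTIR1 inhibitor, and the WT line, without a degron, received the same treatment. The tag sits at the C-terminus of UHRF1 and at the N-terminus of DNMT1, and whether day 0 cells had had doxycycline is not given in the sources used here. Each of the 8 groups held 3 libraries. The study's reporting summary describes biological replicates of the degron lines as coming from different clones and does not list the WT line among them. The labels tie no library to a clone, so p-values measure the spread between these libraries, which for WT may be technical. UHRF1 and DNMT1 together copy CpG methylation onto newly made DNA. The degron acts on the protein, so transcript levels do not show the depletion. UHRF1 transcripts averaged 25.2 CPM (reads scaled to library size) in WT, 52.7 in UHRF1-AID and 44.7 in the compound line at day 4, and DNMT1 transcripts averaged 30.9 CPM in WT, 15.2 in DNMT1-AID and 12.3 in the compound line. Before auxin, UHRF1 already averaged 73.7 CPM in WT, 171 in UHRF1-AID and 151 in the compound line. DNMT1 then averaged 143 CPM in WT, 44.7 in DNMT1-AID and 66.4 in the compound line. In WT itself UHRF1 fell by 1.54 and DNMT1 by 2.20 on the log2 scale between the days.

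DNA in the cytosol is bound by cGAS, the product of CGAS, which makes the cyclic dinucleotide cGAMP. STING, the product of STING1, binds cGAMP at the endoplasmic reticulum, moves to the Golgi and recruits TBK1 and its relative IKKε, the product of IKBKE. These kinases phosphorylate IRF3, which enters the nucleus and switches on type I and type III interferon genes. IFI16 and AIM2 bind DNA directly, AIM2 building an inflammasome with ASC (PYCARD) and caspase-1 (CASP1), ZBP1 binds Z-form nucleic acid and signals through RIPK3, and TREX1 degrades cytosolic DNA. In colorectal cancer lines parts of this pathway are known to be silent.

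The sensors were at or near 0 counts in most groups, while the signalling core was expressed throughout. In WT cells the 5 genes CGAS, IFI16, AIM2, ZBP1 and TREX1 had no count in any of 6 libraries, while STING1, TBK1, IKBKE and IRF3 had 72 or more counts in every one of the 24 libraries. At day 4 CGAS reads were present in all 3 UHRF1-AID libraries and all 3 compound line libraries, and in no other library. IRF3 rose between day 0 and day 4 in UHRF1-AID and in the compound line. In WT and DNMT1-AID it differed in the same direction, by 0.34 and 0.37 on the log2 scale, without passing the threshold. STING1 fell in the compound line over the same time, though not past the threshold in every fit without 1 library. Neither change in the compound line was shown to differ from that in WT. IKBKE rose past the threshold in each of the 3 degron lines, though in UHRF1-AID and the compound line not in every fit without 1 library, and WT differed in the same direction, by 0.42 on the log2 scale, without passing it. TBK1 was higher in UHRF1-AID at day 4 than in WT or DNMT1-AID, by less than 1 on the log2 scale.

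Between 15824804 and 25073821 reads per library fell on genes, with 18630957 to 25073821 at day 0 and 15824804 to 19991383 at day 4. A count of 3 in a library, used here as the floor, equals 0.121 to 0.195 CPM. The headers show that the folder used for alignment was shared by the 12 day 0 libraries and the UHRF1-AID libraries of day 4 (3), and differed for the other 9 day 4 libraries. Only these 9 held reads of the ERCC spike-in RNAs, at 0.891% to 1.65% of counts. UHRF1-AID against WT or DNMT1-AID at day 4, and day 4 against day 0 in WT, DNMT1-AID and the compound line, cross the folders, so there the folder and the comparison cannot be told apart. UHRF1-AID at day 4 against day 0, and DNMT1-AID and the compound line against WT at day 4, lie within a folder. Epithelial markers summed to 4366 to 9619 CPM over the 8 groups, though VIL1, 1 of the 8 listed, had at most 7 reads in any library and none in WT at day 4. The counts come from bulk samples, where fewer cells of a type and less RNA per cell cannot be told apart.

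Promoter sequence of the members is shown first because CpG is the site where UHRF1 and DNMT1 act. RefSeq starts on GRCh38.p14 were matched for 5 of the 9 members, IFI16, AIM2, TREX1, TBK1 and IKBKE; the other members are CGAS, STING1, ZBP1 and IRF3. The 250 bases before the start held 27 CG in TBK1, 4 in IKBKE, 3 in TREX1, 2 in AIM2, and 0 and 3 at the 2 starts of IFI16, against a median of 11 (quartiles 3 and 23) over 35116 promoters. Of all promoters, 17.7% held at least as many CG as TBK1, 70.7% as IKBKE and 85.3% as AIM2. Sequence is printed here 5′ to 3′ with every CG in capitals, 2 from sensors that were at or near 0 and 1 from a kinase gene that was transcribed in every library. They are the parts of these windows that no annotated exon covers. The IFI16 stretch lies at chr1:159009657-159009891 on the plus strand and holds 3 CG, the AIM2 stretch at chr1:159076902-159077016 on the minus strand and holds 1, and the IKBKE stretch at chr1:206470226-206470475 on the plus strand and holds 4.
IFI16: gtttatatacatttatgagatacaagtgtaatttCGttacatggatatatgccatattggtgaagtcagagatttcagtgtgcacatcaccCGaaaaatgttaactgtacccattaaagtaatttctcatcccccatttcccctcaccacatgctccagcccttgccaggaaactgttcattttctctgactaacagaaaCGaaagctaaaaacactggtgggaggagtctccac
AIM2: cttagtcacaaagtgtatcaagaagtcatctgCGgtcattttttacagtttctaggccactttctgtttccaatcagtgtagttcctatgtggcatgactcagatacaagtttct
IKBKE: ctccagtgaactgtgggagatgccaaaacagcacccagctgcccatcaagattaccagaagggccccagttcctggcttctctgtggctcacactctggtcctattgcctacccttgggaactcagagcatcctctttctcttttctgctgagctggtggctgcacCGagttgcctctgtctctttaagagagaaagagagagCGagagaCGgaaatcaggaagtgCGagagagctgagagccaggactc
CG was scarce in all of these stretches. Methylation was not measured in these libraries.

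CGAS (ENSG00000164430, hg38 chromosome 6 from 73413515 to 73452276, minus strand) encodes the enzyme that turns DNA binding into cGAMP. No CGAS read was counted in any of the 12 day 0 libraries, in the 3 WT libraries at day 4 or in the 3 DNMT1-AID libraries at day 4. UHRF1-AID libraries at day 4 held 7, 6 and 5 reads. Compound line libraries at day 4 held 12, 9 and 9 reads. All 6 of these libraries stood above the floor of 3, and neither group overlapped with WT or DNMT1-AID. The level was 0.297 ± 0.0574 CPM (SD, n = 3) in UHRF1-AID and 0.614 ± 0.107 CPM (SD, n = 3) in the compound line. Summed over 3 libraries, the 18 reads in UHRF1-AID gave 0.318 CPM before scaling (exact Poisson 95% interval 0.189 to 0.503) and the 30 reads in the compound line 0.617 (0.416 to 0.881), whereas 0 reads in DNMT1-AID at day 4 allow up to 0.0742 and 0 in WT at day 4 up to 0.0763. These intervals cover counting error only.

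Against a floor of 3 counts per library, CGAS was at least 1.61-fold higher in UHRF1-AID and at least 3.34-fold higher in the compound line than in WT at day 4. The same bounds, 1.61 and 3.34, held against DNMT1-AID at day 4, and against the day 0 libraries of the same line the bounds were 2.09 in UHRF1-AID and 4.71 in the compound line. The counts were so low that CGAS passed the filter on low counts in only 1 comparison, the compound line at day 4 against day 0, where edgeR's quasi-likelihood test gave an adjusted p of 5.29e-05. There it was called, that is, more than 1 away from 0 on the log2 scale with an adjusted p below 0.05, as were 26.6% of genes tested. With no read at day 0 it could pass the filter only through the day 4 libraries, where it is high, so this call is a description and adds no support. It was not tested when any 1 of the day 0 replicates 1, 2 or 3 of the compound line was left out, because it then missed the filter. Without the filter, the edgeR adjusted p was 0.0153 for UHRF1-AID and 6.52e-05 for the compound line against WT at day 4, 0.0213 and 0.000177 against DNMT1-AID, and 0.00192 and 3.32e-06 against day 0. DESeq2 gave 0.0535 for UHRF1-AID against WT and 0.0536 against DNMT1-AID, and between 6.83e-05 and 0.00960 in the other 4 comparisons. Of all genes, the share called higher without the filter was 5.43% for UHRF1-AID and 8.22% for the compound line against WT, 2.64% and 4.81% against DNMT1-AID, and 9.21% and 11.5% against day 0.

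UHRF1-AID at day 4 shared its folder with 12 day 0 libraries at 0, and the compound line at day 4 shared its folder with 6 WT and DNMT1-AID libraries at 0. Whether the day effect on CGAS differed between the compound line and WT gave no usable edgeR p, because 3 of the 4 groups were at 0. DESeq2, which met the same groups at 0, gave an unadjusted p of 0.0369 and no adjusted p. The exons of CGAS share 4.33% of their bases with DDX43 on the opposite strand, and whether counting used strand is not given in the sources used here.

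**Figure D1:**
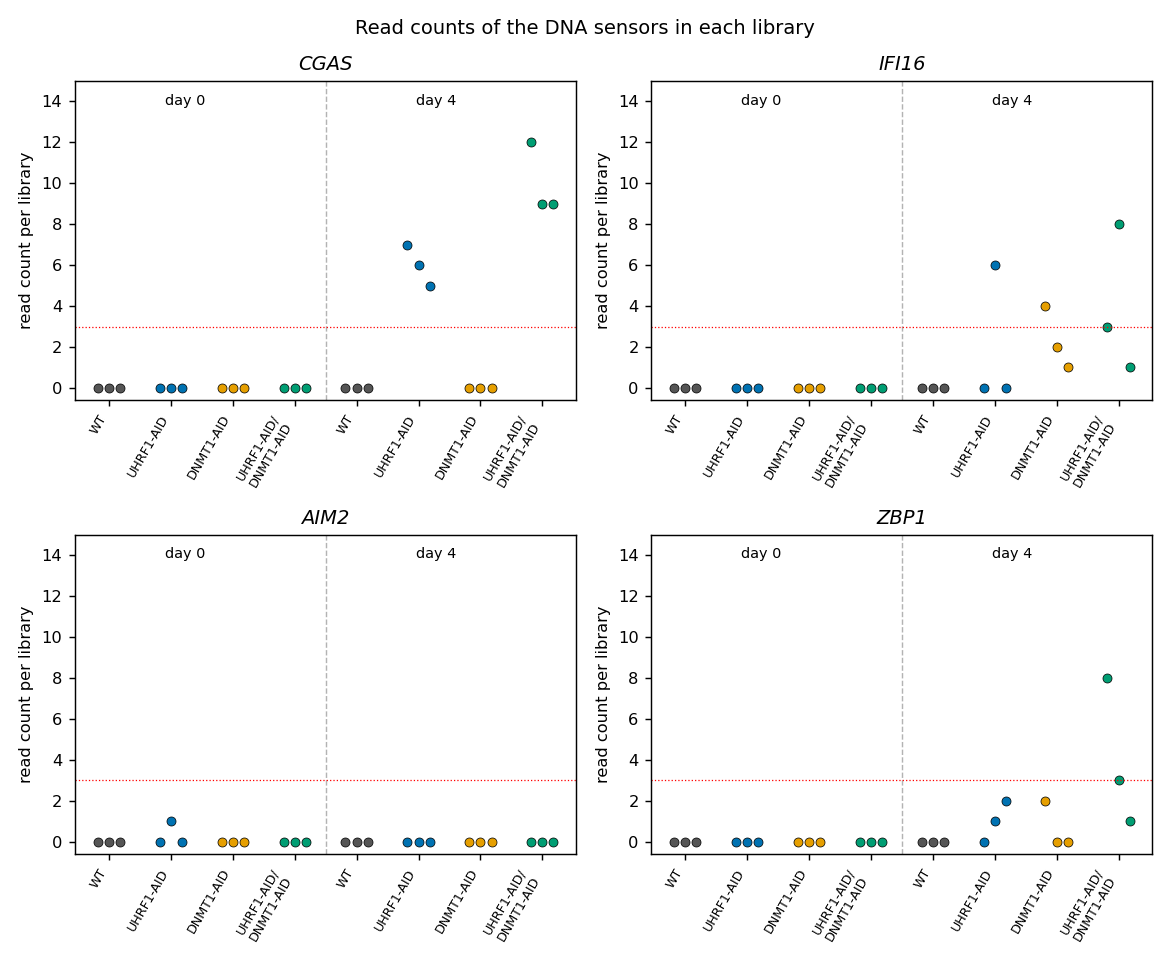
Read counts of CGAS, IFI16, AIM2 and ZBP1 in each of the 24 libraries by group, 1 dot per library. A dotted line marks the floor of 3 counts. CGAS stands above the line in all 3 UHRF1-AID and all 3 compound line libraries at day 4 and at 0 elsewhere. AIM2 stays at or under 1.

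Markers of white blood cells (leukocytes), TYROBP above all, stood highest in the libraries that held CGAS reads. At day 4 their sum was also higher in DNMT1-AID, which had no CGAS read, than in WT. The 8 leukocyte markers summed to 4.43 to 7.24 CPM in UHRF1-AID and 4.65 to 6.51 CPM in the compound line at day 4, against 1.03 to 1.29 in DNMT1-AID, 0.0638 to 0.361 in WT and 0 to 0.826 over the day 0 groups. A count was present for 7 of the 8 markers in UHRF1-AID and 6 of 8 in the compound line. TYROBP, an adaptor of myeloid and natural killer cell receptors, made up most of the sum, with 214 reads in the UHRF1-AID libraries, 140 in the compound line, 27 in DNMT1-AID and 0 in WT. The macrophage marker CD68 was at 0 in UHRF1-AID and the compound line, and LYZ was at 0 in DNMT1-AID and the compound line. The 4 fibroblast markers summed to 15.9 to 19.8 CPM in the compound line at day 4, 4.23 to 11.9 in UHRF1-AID, 9.03 to 13.9 in DNMT1-AID and 3.32 to 8.78 in WT, and the 3 endothelial markers to at most 1.90 CPM in any group. The part of these genes in the counts of CGAS, IFI16, ZBP1, PYCARD, CASP1 and RIPK3 was not tested.

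IFI16 (ENSG00000163565, chromosome 1 from 158999968 to 159055155, plus strand), a nuclear and cytosolic DNA sensor, had no read at day 0 or in WT at day 4. At day 4 DNMT1-AID had 4, 2 and 1 reads, UHRF1-AID 0, 6 and 0, and the compound line 3, 8 and 1. It was the only sensor with a read in every DNMT1-AID day 4 library. Most of these counts lay at or under the floor. Without the filter the edgeR adjusted p for the compound line was 0.0311 against WT at day 4, where DESeq2 gave 0.0796, and 0.00856 against day 0, where DESeq2 gave 0.0191, and for DNMT1-AID against WT it was 0.228.

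ZBP1 (ENSG00000124256, chromosome 20 from 57603846 to 57620576, minus strand), the Z-nucleic acid sensor, also had no read at day 0 or in WT at day 4. The compound line held 8, 3 and 1 reads at day 4, UHRF1-AID 0, 1 and 2, and DNMT1-AID 2, 0 and 0. Only 1 of the 24 libraries, compound line replicate 1, exceeded the floor. Without the filter the edgeR adjusted p for the compound line was 0.0316 against WT, where DESeq2 gave 0.0815, and 0.00873 against day 0, where DESeq2 gave 0.0197.

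AIM2 (ENSG00000163568, chromosome 1 from 159062484 to 159147096, minus strand), the inflammasome sensor, had 1 read in UHRF1-AID replicate 2 at day 0 and none in the other 23 libraries. In the compound line at day 4, 0 reads in 3 libraries allow up to 0.0759 CPM before scaling (exact Poisson, 95%). The AIM2 transcript was thus not detectable at this depth in any day 4 group.

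TREX1 (ENSG00000213689, chromosome 3 from 48465811 to 48467645, plus strand) had 0 reads in all 24 libraries. All 1515 of its exon bases lie inside exons of ATRIP, a DNA damage checkpoint gene on the same strand, so reads of both genes cannot be told apart in these tables, and a count of 0 does not show that TREX1 was silent. ATRIP had 122 to 421 reads per library. It fell by 0.92 on the log2 scale (SE 0.19, edgeR adjusted p = 0.00299) in DNMT1-AID and by 0.84 (SE 0.14, adjusted p = 3.71e-05) in the compound line between day 0 and day 4, and its change in WT was −0.22 (adjusted p = 0.272).

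STING1 (ENSG00000184584, chromosome 5 from 139475534 to 139482935, minus strand), the cGAMP receptor, was present in every library with 318 to 1013 reads. Its level in RPKM (CPM per kilobase of exon) was 6.55, 8.05 and 6.84 in WT at day 0 and 6.10, 6.88 and 5.54 at day 4. The compound line held 6.98, 11.2 and 11.4 RPKM at day 0 and 5.63, 6.26 and 5.29 at day 4. All 3 day 4 libraries of the compound line lay below its lowest day 0 library. STING1 fell by 0.74 on the log2 scale there (SE 0.18, adjusted p = 0.00567), and without day 4 replicate 3 the adjusted p was 0.0581. DNMT1-AID held 9.26, 7.61 and 9.13 RPKM at day 0 and 7.85, 5.92 and 8.16 at day 4, and UHRF1-AID held 6.75, 7.16 and 6.99 at day 0 and 5.97, 4.37 and 7.37 at day 4. In both lines the days overlapped, and the log2 difference was −0.22 in each. The fall in the compound line exceeded that in WT by 0.58 on the log2 scale, a difference that missed the threshold (SE 0.23, adjusted p = 0.1004). At day 4 no line differed from WT in STING1 beyond the spread, with log2 differences of 0.25 in DNMT1-AID, −0.07 in UHRF1-AID and −0.09 in the compound line.

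TBK1 (ENSG00000183735, chromosome 12 from 64451880 to 64502108, plus strand), the main IRF3 kinase, had 12.7, 13.3 and 13.3 RPKM in UHRF1-AID at day 4. WT held 9.83, 10.0 and 8.75 RPKM at day 4, and DNMT1-AID 9.56, 8.49 and 9.45. The compound line lay between them at 11.3, 11.1 and 10.0 RPKM. The UHRF1-AID libraries were the 3 highest of all 24. TBK1 was higher in UHRF1-AID by 0.45 against WT (log2, SE 0.11, adjusted p = 0.0209) and by 0.47 against DNMT1-AID (SE 0.11, adjusted p = 0.0225). Both comparisons cross the folders. The adjusted p stayed under 0.05 in only 2 of 6 fits with 1 library left out, those without UHRF1-AID replicate 1 or 2, and reached 0.0878 against WT without UHRF1-AID replicate 3 and 0.0976 against DNMT1-AID without DNMT1-AID replicate 2; leaving out any other WT, DNMT1-AID or UHRF1-AID library of day 4 also took it over 0.05. Within the folder, TBK1 rose in UHRF1-AID from 10.1, 8.61 and 10.0 RPKM at day 0 by 0.48 (SE 0.11, adjusted p = 0.00662), and all 6 fits without 1 library held. In WT, DNMT1-AID and the compound line the day 4 differences were 0.07, −0.18 and 0.19, none past the threshold. Of its exon bases 14.7% are shared with an unnamed gene on the opposite strand.

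IKBKE (ENSG00000263528, chromosome 1 from 206470476 to 206496889, plus strand), the inducible relative of TBK1, was the lowest of the 4 expressed members, with 72 to 155 reads per library. WT held 0.926, 1.16 and 1.35 RPKM at day 0 and 1.60, 1.41 and 1.57 at day 4. DNMT1-AID held 1.06, 1.15 and 1.04 RPKM at day 0 and 1.98, 1.78 and 1.95 at day 4. UHRF1-AID held 1.13, 1.32 and 1.19 at day 0 and 1.99, 1.76 and 1.80 at day 4, and the compound line 1.25, 1.22 and 1.33 at day 0 and 1.96, 1.72 and 1.51 at day 4. In all 4 lines each day 4 library was above every day 0 library of its line. The rise was 0.84 in DNMT1-AID (log2, SE 0.21, adjusted p = 0.00866), 0.63 in UHRF1-AID (SE 0.19, adjusted p = 0.0190) and 0.49 in the compound line (SE 0.18, adjusted p = 0.0211), and in WT the difference was 0.42 with an adjusted p of 0.130. The rise in DNMT1-AID held in all 6 fits without 1 library. In UHRF1-AID and the compound line it held in 3 of 6 each. In UHRF1-AID it was lost without day 0 replicate 1, day 0 replicate 3 (adjusted p = 0.0797) or day 4 replicate 1, and in the compound line without day 0 replicate 2, day 4 replicate 1 (adjusted p = 0.121) or day 4 replicate 2. Without the filter the adjusted p was 0.0521 in UHRF1-AID and 0.0578 in the compound line, and DESeq2 gave 0.0602 in the compound line. The rise in DNMT1-AID was not shown to differ from WT (0.43, SE 0.26, adjusted p = 0.481), and at day 4 no line differed from WT past the threshold.

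IRF3 (ENSG00000126456, chromosome 19 from 49659569 to 49665875, minus strand), the factor that TBK1 phosphorylates, had the highest mean RPKM of the members in all 8 groups. WT held 10.5, 11.5 and 11.2 RPKM at day 0 and 12.9, 15.6 and 13.3 at day 4. UHRF1-AID rose from 11.3, 10.1 and 10.3 RPKM to 16.8, 18.8 and 19.3, by 0.82 on the log2 scale (SE 0.12, adjusted p = 0.000465). The compound line rose from 9.69, 10.3 and 10.8 RPKM to 15.9, 14.8 and 17.8, by 0.69 (SE 0.09, adjusted p = 1.46e-06). Both rises held in all 6 fits without 1 library. WT and DNMT1-AID had similar directions that missed the threshold, with differences of 0.34 (adjusted p = 0.0510) and 0.37 (adjusted p = 0.0546), and DNMT1-AID held 12.9, 12.2 and 9.87 RPKM at day 0 and 13.5, 16.5 and 14.7 at day 4. The rise in the compound line was not shown to exceed that in WT (0.31, SE 0.14, adjusted p = 0.170). At day 4 all 3 UHRF1-AID libraries lay above all 3 WT libraries, yet the difference of 0.38 missed the threshold (SE 0.12, adjusted p = 0.0548). These 3 values lay near the threshold, and over 7 other settings the adjusted p ran from 0.0231 to 0.0986 for UHRF1-AID against WT, from 0.0147 to 0.133 for the change in WT and from 0.00845 to 0.0917 for that in DNMT1-AID. IRF3 shares 19.4% of its exon bases with BCL2L12 on the opposite strand.

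By mean level per length, IRF3 was first, TBK1 the second, STING1 the third and IKBKE the fourth in 7 of the 8 groups. In the compound line at day 0 STING1 (9.88 ± 2.51 RPKM, SD, n = 3) stood above TBK1 (9.73 ± 0.647 RPKM), but the 2 did not differ beyond their spread, nor did TBK1 and IRF3 (10.3 ± 0.582 RPKM). In UHRF1-AID at day 4 the levels were IRF3 18.3 ± 1.30 RPKM, TBK1 13.1 ± 0.329 RPKM, STING1 between 4.37 and 7.37 RPKM and IKBKE 1.85 ± 0.125 RPKM, and no neighbours in this order overlapped. IKBKE was below the lowest STING1 library in every group.

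At day 0 the members did not separate the lines. Of the 4 members tested, 0 were called and 0 passed the adjusted p alone in UHRF1-AID against WT, in DNMT1-AID against WT or in the compound line against WT by edgeR; at an unadjusted p under 0.05 the counts were 0, 0 and 1, and DESeq2 called 0 in each. Of all genes tested, 0%, 0.00723% and 1.31% were called, and 0%, 0.00723% and 3.64% passed the adjusted p alone. The largest member difference was STING1 in the compound line, at 0.44 (log2, adjusted p = 0.235).

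At day 4 again 0 of the 4 members tested were called against WT in any line by edgeR, where 2.57% of genes were called in DNMT1-AID, 6.99% in UHRF1-AID and 11.7% in the compound line. The adjusted p alone was passed by 0 members in DNMT1-AID, by 1, TBK1, in UHRF1-AID and by 0 in the compound line, against 7.95%, 17.4% and 38.2% of all genes. At an unadjusted p under 0.05 the counts were 0, 2 and 1, and DESeq2 called 0, 0 and 1, the last being CGAS. Their median log2 difference was 0.17 in DNMT1-AID, 0.32 in UHRF1-AID and 0.20 in the compound line, against medians of 0.00167, 0.03 and 0.02 over all genes tested. Between UHRF1-AID and DNMT1-AID at day 4, 0 members were called and 1 passed the adjusted p alone (5.31% and 13.9% of all genes), and between the compound line and DNMT1-AID 0 and 0 did (6.84% and 20.5%).

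Between day 0 and day 4 more members passed. In UHRF1-AID 3 of 4 passed the adjusted p alone, all higher, in DNMT1-AID 1, higher, in the compound line 3 of 4, 2 higher and 1 lower, and in WT 0, where 49.4%, 40.4%, 67.8% and 35.6% of all genes did. CGAS, tested in the compound line alone and there only through its day 4 reads, is left out of these counts. With the fold threshold added the counts were 0, 0, 0 and 0, against 21.9%, 15.3%, 26.6% and 11.9% of all genes. The median log2 change of the 4 expressed members was 0.55 in UHRF1-AID, 0.34 in the compound line, 0.10 in DNMT1-AID and 0.20 in WT. Over all genes it was 0.02, 0.02, −0.0077 and −0.029. The change in DNMT1-AID minus that in WT was called for 0 members (0.139% of all genes, and 0.153% by the adjusted p alone, with 0 members), and likewise that in the compound line minus WT for 0 members (5.41% and 15.3%, with 0 members). With 4 members tested, none of these counts sets the members apart from genes at large. These comparisons share control libraries. The change in UHRF1-AID was not set against that in WT, because the day 4 libraries of the 2 lines lay in different folders.

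**Figure D2:**
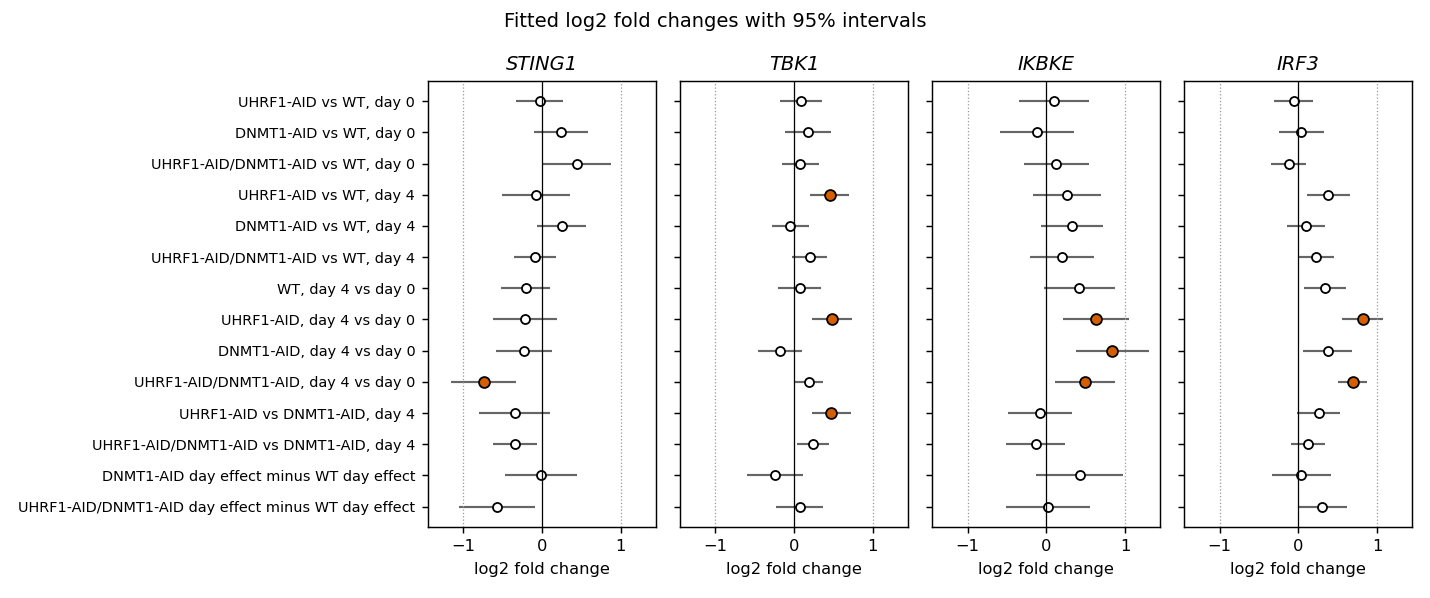
Fitted log2 fold changes of STING1, TBK1, IKBKE and IRF3 in 14 comparisons with 95% intervals, filled orange where the edgeR adjusted p is under 0.05, with dotted lines at −1 and 1. No interval centre lies beyond the dotted lines, and the points furthest from 0 are IKBKE in DNMT1-AID (0.84), IRF3 in UHRF1-AID (0.82) and STING1 in the compound line (−0.74), each between day 0 and day 4.

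Of the 81 further genes listed, 10 of 70 tested were called in UHRF1-AID against WT at day 4 (all higher, 14.3%, against 6.99% of all genes), 8 of 69 in DNMT1-AID (all higher, 11.6%, against 2.57%) and 13 of 72 in the compound line (12 higher and 1 lower, 18.1%, against 11.7%). Of the 13, IFNL1, PYCARD, CASP1 and RIPK3 passed the filter only through the compound line libraries, so that share adds no support. CCL5, 1 of the 10 in UHRF1-AID, was too low in WT to pass by that group. The list was drawn up with earlier results of these data known, so these shares are a description. The number called depended on single libraries. It was 5 in UHRF1-AID without UHRF1-AID replicate 3, 8 in the compound line without WT replicate 2, and in DNMT1-AID it was 3 without WT replicate 1, 4 without WT replicate 2 and 3 without DNMT1-AID replicate 3, all at day 4. The median log2 difference over the list was 0.18, 0.06 and 0.13. Induced outputs, the interferons, chemokines and interferon-stimulated genes that the pathway can switch on, gave 7 of the 10 calls in UHRF1-AID, 5 of the 8 in DNMT1-AID and 6 of the 13 in the compound line, with 8 outputs tested in each. CGAS had no read in DNMT1-AID, and what raised these outputs was not tested.

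Among these outputs ISG15, a ubiquitin-like protein, reached 952 to 1218 CPM in WT at day 4 and 2494 to 3169 CPM in DNMT1-AID (1.38 on the log2 scale, SE 0.12, adjusted p = 6.22e-06). In the compound line it reached 2708 to 4537 CPM (1.83, SE 0.21, adjusted p = 0.000301). IFIT1, which binds foreign RNA caps, was higher than in WT by 1.99 in UHRF1-AID, by 1.72 in DNMT1-AID and by 2.31 in the compound line (adjusted p = 0.0111, 0.0214 and 0.0118). IFIT3 was higher by 2.26 and the chemokine CCL5 by 2.23 in UHRF1-AID (edgeR adjusted p = 0.00836 and 0.0104), and OASL by 1.43 in DNMT1-AID (adjusted p = 0.000359). CCL5 averaged 0.387 CPM in WT against 1.86 in UHRF1-AID, so WT alone would not have passed the filter. The call of CCL5 is therefore a description. ISG15 and OASL were also called higher in UHRF1-AID, by 1.24 and 1.48 (edgeR adjusted p = 0.0412 and 0.0405). Over the 4 days ISG15 had also risen in WT by 3.57, IFIT1 by 5.12, IFIT3 by 3.28 and OASL by 3.51. The type III interferon IFNL1 had 14, 68 and 77 reads in the compound line against 0, 0 and 4 in WT, in ascending order, and passed the filter there only through the compound line libraries, so that its call is a description. IFNB1, the classical target of IRF3, is named here after its values were seen, and it had no read at day 0 or in WT at day 4, 0 to 6 per library in UHRF1-AID, 0 to 3 in DNMT1-AID and 0 to 8 in the compound line, the reads in UHRF1-AID and the compound line coming from 1 library each.

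The transcription factor IRF7, which amplifies the interferon response, was called in every degron line at day 4. Its level was 59.8 ± 3.17 CPM in WT, 140 ± 23.3 in DNMT1-AID, 171 ± 36.4 in UHRF1-AID and 212 ± 30.7 in the compound line (SD, n = 3), with no overlap between WT and any other line. The log2 differences from WT were 1.23 (SE 0.12, adjusted p = 1.32e-05), 1.51 (SE 0.16, adjusted p = 0.000360) and 1.84 (SE 0.11, adjusted p = 4.32e-11). It was the only called gene among the 5 tested transcription factors beside IRF3. WT itself rose from 6.59 CPM at day 0, by 3.18 on the log2 scale.

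Of the nucleases and the dNTP hydrolase that remove DNA ligands, SAMHD1 was called higher in all 3 lines, by 1.30 in DNMT1-AID, 1.73 in UHRF1-AID and 1.67 in the compound line (adjusted p = 0.0323, 0.000780 and 0.000247). Its mean was 53.8 CPM in WT and 132, 180 and 169 CPM in those lines. TREX2, a relative of TREX1, was called in the compound line (1.29, SE 0.51, edgeR adjusted p = 0.0490), with overlapping libraries and 52.1% of its exon bases shared with another gene on the same strand. TREX2 averaged 0.425 CPM in WT against 1.05 in the compound line, so WT alone would not have passed the filter. This call is a description too. Among the adaptors, OPTN, an autophagy receptor that binds TBK1, was higher in UHRF1-AID (71.1 against 34.3 CPM, 1.04, adjusted p = 0.000371). Among the genes of STING trafficking and turnover, 0 of 13 were called in UHRF1-AID, 1 of 13 in DNMT1-AID and 0 of 12 in the compound line, the 1 being TRIM56, a ubiquitin ligase (1.04, adjusted p = 0.0479). None of the 4 tested genes of cGAMP hydrolysis and transport was called by edgeR, though at the adjusted p alone 1, 1 and 3 passed.

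The other DNA sensors and DNA-binding cofactors, 14 tested, gave 0, 0 and 1 calls. The 1 was RAD50, a double-strand break protein, lower in the compound line by 1.21 on the log2 scale (SE 0.35, adjusted p = 0.00964), and 79.7% of its exon bases are shared with another gene on the same strand. At the adjusted p alone, 3 of the 14 passed in UHRF1-AID, 2 higher and 1 lower, 1 in DNMT1-AID, lower, and 7 in the compound line, 1 higher and 6 lower, against 17.4%, 7.95% and 38.2% of all genes. PYHIN1, MNDA, SLC46A2 and IL1B, 4 of the 81 listed genes, stayed at or under the floor in all 24 libraries.

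PYCARD, CASP1 and RIPK3, through which AIM2 and ZBP1 signal, were at or near 0 at day 0 and in WT. PYCARD had no read in any day 0 or WT library and 20, 22 and 30 in the compound line, 5, 7 and 14 in UHRF1-AID and 0, 2 and 4 in DNMT1-AID at day 4, in ascending order. CASP1 had 13, 14 and 21 reads in the compound line, 8, 20 and 26 in UHRF1-AID and 5, 8 and 12 in DNMT1-AID, and none in any WT or day 0 library. RIPK3, the kinase of necroptosis, had 15, 21 and 24 reads in the compound line, 6, 14 and 15 in UHRF1-AID and 0, 0 and 3 in DNMT1-AID, none in WT and 2 in all at day 0. Against the floor in WT at day 4 they were at least 8.02-, 5.37- and 6.64-fold higher in the compound line. They are 3 of the 13 calls there, and with WT at 0 they could pass the filter only through the compound line libraries, so these calls are a description. Most of the exon bases of PYCARD (59.7%) are shared with a gene on the opposite strand.

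**Figure D3:**
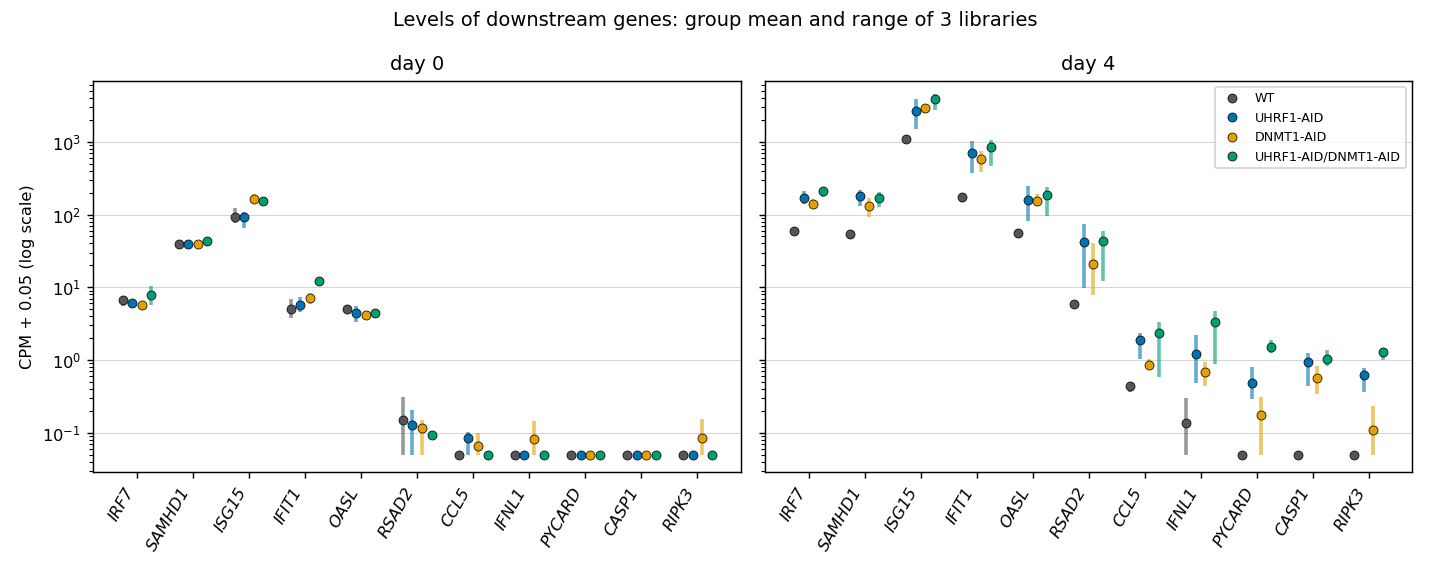
Levels of 11 pathway genes at day 0 and day 4 in the 4 lines, as CPM plus 0.05 on a log axis, with the mean and range of 3 libraries. IRF7, ISG15, IFIT1 and OASL rise in every line including WT, while PYCARD, CASP1 and RIPK3 lie at 0 in WT on both days and have reads in every UHRF1-AID and compound line library at day 4. In DNMT1-AID at day 4 CASP1 has 5, 8 and 12 reads, and PYCARD 0, 2 and 4.

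In UHRF1-AID between day 0 and day 4, the comparison free of a folder change, 18 of the 70 further genes were called, 13 higher and 5 lower (25.7%, close to the 21.9% of all genes), with a median log2 change of 0.33. Outputs led again, with 7 of 8 called, all higher. IFIT1 rose by 6.95, ISG15 by 4.86 and IFIT3 by 4.96 (adjusted p = 1.85e-05, 4.71e-05 and 5.65e-05). The factors IRF7 and STAT2 rose by 4.85 and 2.10. GSDMD, the pore former downstream of inflammasomes, rose by 1.09, OPTN by 1.84 and SAMHD1 by 2.21. WT, in a comparison that crosses the folders, also rose, in STAT2 by 1.33, GSDMD by 0.84, OPTN by 0.66 and SAMHD1 by 0.46. The edgeR adjusted p was under 0.05 for each of these. At day 4 GSDMD was not shown to differ between UHRF1-AID and WT (0.22, edgeR adjusted p = 0.286).

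The 5 called lower in UHRF1-AID over time were DNA-binding or nuclease genes. HNRNPA2B1 and HMGB1, abundant nucleic acid binding proteins, fell by 1.24 and 1.19 on the log2 scale (adjusted p = 8.10e-05 and 8.71e-05), and PRKDC, the DNA repair kinase, fell by 1.91 (adjusted p = 0.000406). DNASE1 fell by 1.21 and RNASEH2A, of which 30.8% of exon bases are shared with another gene on the same strand, by 1.11 (adjusted p = 0.0101 and 0.0115). PRKDC, HNRNPA2B1 and RNASEH2A were also called lower in WT over these days, by 1.76, 1.34 and 1.40, and in DNMT1-AID and the compound line. HMGB1 was called lower in DNMT1-AID and the compound line, by 1.38 and 1.34. In WT it fell by 0.90 (edgeR adjusted p = 0.00207), short of the fold threshold. DNASE1 passed the adjusted p in no other line. Of the 14 other sensors, 10 passed the adjusted p alone in UHRF1-AID, all lower, where 49.4% of all genes passed in either direction.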

How the data were processed

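RNA-seq counts of 24 libraries in 8 groups were used, with group and replicate from the sample labels. The authors isolated polyadenylated RNA, had libraries made with a NEBNext Ultra RNA kit, trimmed paired reads (Trimmomatic), mapped them with STAR (hg38) and deposited raw featureCounts counts per gene. The strand setting and the treatment of multiply aligned reads are not given in the sources used here, so counts of overlapping genes are uncertain. Of 58735 genes 58207 matched a symbol, and 92 spike-in sequences entered neither library sizes nor tests.

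Differences were tested with R 4.3.3 and edgeR 4.0.16 (filterByExpr, TMM scaling, robust quasi-likelihood test, Benjamini-Hochberg adjustment over all genes tested). Each fit held only the libraries compared. Called genes lay more than 1 from 0 on the log2 scale with an adjusted p below 0.05. CPM and RPKM were scaled by TMM over 24 libraries, RPKM by the summed exon length in the tables. Where a group was at 0, folds were computed against a floor of 3 counts per library. The edgeR test was tried on simulated counts, for a comparison of groups and for a difference of day effects. Alternatives were DESeq2 1.42.0 and its size factors, no filter, a single fit of all 24 libraries, a minimum of 10 counts per library, a gene length offset, a replicate block, no minimum fold change and each replicate left out. Promoter sequences came from RefSeq (GRCh38.p14). Python 3.11.15, matplotlib 3.10.9 and pandas 2.3.3 made the tables and plots.

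The members, gene lists and tests were chosen with earlier results of these data known. All 9 members were described. From the list of 81, the called genes with the smallest p were named, up to 3 in each direction within a role, in each line against WT at day 4 and in UHRF1-AID between days, with any gene at or under 3 counts in every library, and 1 gene that this rule names is not reported here. For a called member with a mean of at least 1 CPM the 2 most similar genes were to be named, and 0 members qualified. Same-numbered replicates deviated together in 1 of 12 comparisons, UHRF1-AID between days (correlations 0.288, 0.176 and 0.156), and over the 12 the range was −0.715 to 0.317. No 2 replicates were 1 library deposited again, as all 24 pairs differed beyond sampling noise (chi-square per degree of freedom 3.52 to 59.2).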

Additional observations from a re-analysis of the deposited data

How the results depend on the processing

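The log2 differences of the 4 expressed members kept their direction in 394 of 396 recomputed values under other settings and in 365 of 384 with 1 library left out. The adjusted p crossed 0.05 in 18 of the first (5 lost, 13 gained) and in 22 of the second (15 lost, 7 gained). STING1, in the change of DNMT1-AID minus that of WT, turned from −0.01 to 0.0008 with at least 10 counts in every library and to 0.0234 with the length offset, and ranged from −0.1137 to 0.1075 with 1 library left out. The other reversals also lay near 0. With 1 library left out, IRF3 in the same contrast ranged from −0.0654 to 0.1197, IKBKE in the compound line minus WT from −0.0821 to 0.1974, STING1 and IKBKE in UHRF1-AID against WT at day 0 from −0.0872 to 0.0769 and from −0.0265 to 0.1985, IRF3 in DNMT1-AID against WT at day 0 from −0.0273 to 0.1363, STING1 in UHRF1-AID against WT at day 4 from −0.2779 to 0.0639, and TBK1 in DNMT1-AID against WT at day 4 from −0.0869 to 0.0064.

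The number of members called moved with the filter, since CGAS, IFI16 and ZBP1 are then tested. Without it, 1 was called in UHRF1-AID and 3 in the compound line against WT at day 4, 1 and 3 against day 0, and 1 and 1 against DNMT1-AID. With all 24 libraries in 1 fit, 1 was called in each of these. DESeq2 called 1 in UHRF1-AID against day 0, 1 in the compound line against WT and against DNMT1-AID, and 3 against day 0. With at least 10 counts in every library the compound line had 0 between days, and with 1 library left out 0 to 1. Without a minimum fold change, the counts were 1 in UHRF1-AID against WT and against DNMT1-AID. Between days they were 3 in UHRF1-AID, 4 in the compound line and 1 in DNMT1-AID. The 4 include CGAS, which passed the filter only through its day 4 reads. The further pathway genes called with at least 10 counts in every library were 6 in UHRF1-AID and 7 in the compound line against WT, where fewer low genes are tested. Without a minimum fold change they were 25, 16 and 36 in UHRF1-AID, DNMT1-AID and the compound line against WT, and 46 in UHRF1-AID between days. With 1 library left out they were 5 to 12, 3 to 7 and 8 to 15 in the 3 lines against WT.

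With the replicate block, UHRF1-AID between days kept 0 members called and 18 further genes, TBK1 changing by 0.48, IRF3 by 0.82 (edgeR adjusted p = 0.000706) and IKBKE by 0.63 (adjusted p = 0.0253), and it changed no other call there. In the comparisons whose samples share only a number, the block gave 10, 7 and 10 further genes in the 3 lines against WT. TBK1 in UHRF1-AID then had an adjusted p of 0.054 against WT and 0.0772 against DNMT1-AID. A library's 3 counts equal up to 0.195 CPM, which limits what can be detected of the sensors.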
